A study of Homo sapiens with 6 samples.

Results

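CSPP1 and other genes of the centrosome and the cilium were examined for cassette exon use in breast cancer cells with and without RBM47, an RNA-binding protein. A cassette exon is an exon that is either kept between its flanking exons or skipped. The genes were taken by symbol from a table of cassette exon events: CSPP1, the CEP, IFT and BBS genes whose symbol goes on with a digit, the TUBGCP and HAUS genes, and PCM1, PCNT, CDK5RAP2, OFD1, AKAP9, NIN, CENPJ, KIAA0586, ALMS1 and AZI1. They gave 204 events in 62 genes, of 24725 events in 7969 genes in the whole table. CSPP1 heads the list because of its change in these same samples, so its values are given as a description. Where it lies past the limits of a test, that follows from the choice and supports nothing. The other genes were chosen by name, with earlier results of these data known.

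The 6 samples were MDA231-BrM2a cells, which were derived from the breast cancer cell line MDA-MB-231 and metastasize to the brain. The 3 Control samples carried the empty pRetroX-Tight-Pur vector and were not clonal. The 3 RBM47 samples were a clone that carried the same doxycycline-inducible vector with Flag-tagged wild type RBM47. All 6 samples received 10 ng/ml doxycycline for 3 days before polyA-selected RNA was sequenced, so doxycycline and the vector backbone were shared by both groups. Since one group was a clone and the other was not, a difference that came with RBM47 and one that came with the clone cannot be told apart. The labels do not say whether the samples of a group came from separate cultures. The p-values from the rates of the samples measure only the spread between these samples, which may be technical. Those from pooled reads do not measure that spread.

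The centrosome is the main microtubule-organizing center of the animal cell. It consists of a pair of centrioles in a protein matrix that holds gamma-tubulin ring complexes, from which microtubules grow. Small granules called centriolar satellites carry proteins to it. In a resting cell the older centriole becomes the basal body, which anchors the primary cilium, and intraflagellar transport trains and the BBSome move cargo along the cilium. Augmin binds to spindle microtubules and brings gamma-tubulin to them in mitosis. CSPP1 is a protein of centrosomes, spindle microtubules and the ciliary axoneme, and variants of its gene cause Joubert syndrome, a ciliopathy.

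The measure was the inclusion rate, the fraction of transcripts that keep the exon, which the authors gave for each sample. Reads were given only as totals of a group, so the depth of a single sample is unknown and no interval is given for a single rate. The events of these genes had between 35 and 5339 reads over both groups, with a median of 376.5, below the median of 665 in the whole table. Samples correlated with each other at r of 0.952 to 0.974 over all events. RBM47 replicate 2 had more rates of exactly 0 or 1 than the other samples, with 14.8% of its rates in events of intermediate inclusion against 6.09% to 7.64%. In the events of these genes with a mean rate of 0.1 to 0.9 it had 12 such rates, against 2 to 9 in the other samples.

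Some rows of the deposited table were out of register, which bears on every large change below. In 1392 rows (5.63%) the rates of the samples did not average to the group averages printed in the same row. The rates were then taken from the row whose rates do average to them, for 1114 rows by both averages and for 252 rows by the RBM47 average alone. Of the 204 events, 201 were in register and 3 were re-matched by the RBM47 average, and these 3 are the events of CSPP1, NIN and AKAP9 that passed the study's criteria. In these rows the control average that was printed and the read totals of the row were far apart. The authors' control average was 0.434 for CSPP1, where the control read totals gave a rate of 0.0227. It was 0.310 for NIN, where the totals gave 0.966, and 0.695 for AKAP9, where they gave 0.890. For NIN the RBM47 average, which was used in the re-match, was also far from its totals, at 0.292 against 0.813. A rate was computed from totals by counting each including read as 0.5, since an included exon has a junction on either side. The read totals do not depend on the re-matching, and they went the same way as the re-matched rates in all 252 rows. All 252 of these rows passed the study's criteria with the re-matched rates.

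Inclusion of most of these exons was nearly equal in the 2 groups. The mean difference between RBM47 and Control was under 0.05 in size in 158 of the 204 events (77.5%), against 80.3% of the whole table, and the median difference was 0.00176, where that of all events was 0. The rate was higher in RBM47 in 107 events (52.5%), lower in 64 (31.4%) and equal in 33, where 41.9% of the whole table were higher and 42.7% lower. Most of these differences were within the limit of 0.05 above, and the direction was not tested. Of the 204 events, 46 shared gene and outer ends with another event, so not all of those counted are independent. A total of 108 exons had a mean rate over 0.9, 39 had one under 0.1, and 57 events in 34 genes lay between these limits. In 26 events all 6 samples had a rate of 1, and in 7 events all 6 had a rate of 0.

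The study's criteria are a two-sided Fisher's exact p of at most 0.05 on the read totals of the groups, a mean inclusion rate that differs by 0.2 or more, and 10 or more reads. By these, 2 of the 204 events were lower in RBM47 (NIN and AKAP9), or 0.980%, near the 0.794% of the whole table. The 1 event past the limits in the higher direction was that of CSPP1, for which the genes were chosen, so nothing is read from this count beside the 0.607% of the whole table. The p alone was at most 0.05 in 17 events (8.33%, against 14.4% of the whole table). Fisher's exact test takes each group as 1 pool of reads, so the spread between samples does not enter it. The second test, limma on the rates of the samples, covered the 57 events with a mean rate of 0.1 to 0.9 and called the NIN exon lower, with an adjusted p under 0.05 over the whole table and a difference of at least 0.2. Of all tested events 0.734% were called higher and 0.784% lower. The CSPP1 exon, higher in RBM47, lay past the same limits, and again nothing is read from it. For 6 of the 57 events limma's unadjusted p was under 0.05, as it was for 720 of the 5998 events tested in the whole table. No Control rate lay within the RBM47 range, or the reverse, for 8 of the 57 events (14.0%, against 17.8% of the whole table), 4 of them higher in RBM47 and 4 lower.

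**Figure D1:**
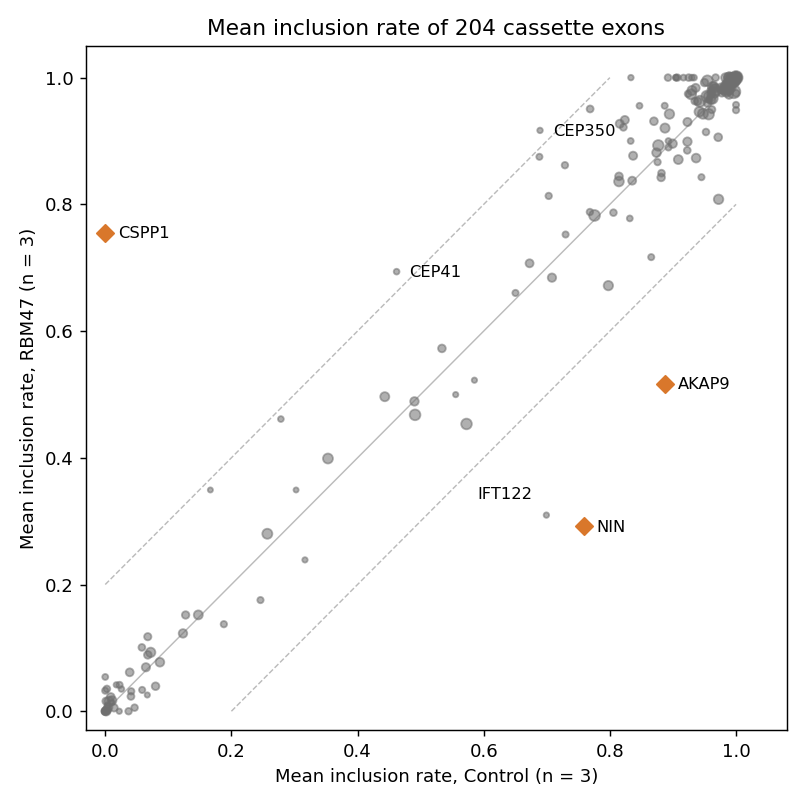
Mean inclusion rate (fraction) in Control, on the horizontal axis, against that in RBM47, on the vertical axis, for the 204 cassette exons. Gray points are events, larger with more reads, orange diamonds are the 3 events past the study's criteria, the solid line marks equal rates and the dashed lines a difference of 0.2. Most points lie along the line of equal rates, and the 6 labelled events are those with a difference of at least 0.2.

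One exon of CSPP1 was skipped in Control and mostly included in RBM47, which was the largest difference among the 204 events. The event spans 68160795 to 68166671 on chromosome 8 in the coordinates of the table, whose build is not given in the sources used here. No Control sample had an inclusion rate above 0, while RBM47 replicate 1 had 0.857, replicate 2 had 0.727 and replicate 3 had 0.680. All RBM47 samples were thus above all Control samples, with a mean of 0.755 ± 0.0917 (SD, n = 3) against 0 ± 0 (SD, n = 3). In Control 2 reads in all included the exon and 43 skipped it, and in RBM47 46 included and 8 skipped it. By gene and outer span, the exon matched 1 exon in the GENCODE annotation of GRCh37, a coding exon of 24 bases on the plus strand at chr8:67999058-67999081. Its length is a multiple of 3, so its inclusion keeps the reading frame.

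The neighboring event shared the upstream flank of the exon of 24 bases. Its cassette exon is the downstream flank of that event, a coding exon of 81 bases at chr8:68004038-68004118. Its rate was 0.795, 0.75 and 0.520 in the Control samples and 1, 0.625 and 1 in the RBM47 samples, with the groups overlapping. The difference was 0.187, with SDs of 0.147 and 0.217 (n = 3 each), on 110 reads in Control and 30 in RBM47. It was 0.103 without Control replicate 3 and 0.312 without RBM47 replicate 2. The skipping product of the first event joins the upstream flank to this exon of 81 bases, so the read sets of the 2 events are linked and the events are not independent.

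The other 6 events of CSPP1 had nearly the same rate in both groups. The event furthest upstream, from 68151270 to 68160898, had a rate of 0 in all 6 samples, with 57 and 25 skipping reads and no including read. The exons in the middle and at the far end of the gene were, with 1 exception, kept in nearly all transcripts. The event from 68170081 to 68180763 had a rate of 1, 0.970 and 1 in Control and 1 in all RBM47 samples. That from 68206739 to 68224723, an exon of 148 bases, had 1, 0.982 and 1 in Control and 1, 1 and 0.974 in RBM47. That from 68212244 to 68228924, an exon of 153 bases, had 0.910, 0.983 and 1 in Control and 0.962, 1 and 1 in RBM47. The differences in these 3 events, of 0.00995, -0.00260 and 0.0226, were each smaller than the SD of the Control group. The last event, from 68265438 to 68270567, had 0.948, 0.980 and 0.971 in Control and 1, 1 and 0.949 in RBM47, a difference of 0.0166 with SDs of 0.0165 and 0.0296. The exception, a mostly skipped exon, lay in the event from 68247204 to 68250224, with 0.0753, 0.0476 and 0.0794 in Control and 0.16, 0.0435 and 0.149 in RBM47. The difference there was 0.0502, with SDs of 0.0173 and 0.0644 and overlapping groups. Over the 8 events of CSPP1 the median ratio of reads in RBM47 to those in Control was 0.674, but the event with the exon of 24 bases had 54 reads in RBM47 and 45 in Control.

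**Figure D2:**
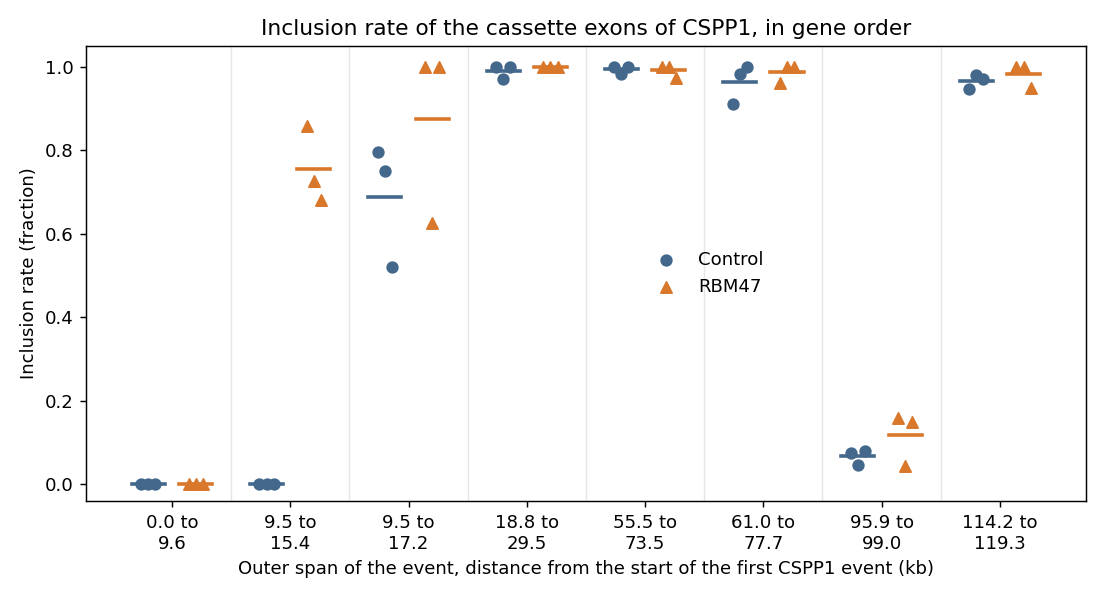
Inclusion rate (fraction) of the 8 cassette exon events of CSPP1, in gene order, with the outer span of each event given as the distance in kb from the start of the first one. Blue circles are the 3 Control samples, orange triangles the 3 RBM47 samples, and bars the group means. The second event, with the exon of 24 bases, is at 0 in all Control samples and between 0.680 and 0.857 in RBM47.

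The matrix and anchoring scaffolds held both exons with lower inclusion past the study's criteria. NIN encodes ninein, which anchors microtubule ends at the subdistal appendages of the mother centriole. Its exon was included less in RBM47. The rate was 0.790, 0.736 and 0.75 in the Control samples and 0.412, 0.161 and 0.302 in the RBM47 samples, so each RBM47 sample was below each Control sample. The mean fell from 0.759 ± 0.0283 to 0.292 ± 0.126 (SD, n = 3 each), a difference of -0.467. The adjusted p of limma was 0.00401, and Fisher's exact p on the totals was 5.88e-29. In Control 3124 reads included and 55 skipped the exon, and in RBM47 878 included and 101 skipped it. The rate from these totals was 0.966 in Control and 0.813 in RBM47, a difference of -0.153, which has the same direction and is short of 0.2. How reads were summed into the totals is not given in the sources used here. Since the totals gave a higher rate than the samples' rates in both groups, they may hold reads other than those behind the rates, and the difference from totals and Fisher's exact p are limited by this. The event spans 50291209 to 50296826 on chromosome 14 in the table and matched a coding exon of 2139 bases on the minus strand at chr14:51223210-51225348 (GRCh37). It is the longest exon among the 107 events of these genes with a matched exon, and its length is a multiple of 3. In limma the adjusted p was 0.0223 on log odds, 0.00119 on untransformed rates, 0.0762 without the variance trend and 0.157 when events of all mean rates were fitted.

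AKAP9 encodes a large scaffold (AKAP450) that holds kinases and the gamma-tubulin complex at the centrosome and the Golgi. The rate of its exon was 0.889, 0.838 and 0.935 in the Control samples and 0.5, 0.385 and 0.667 in the RBM47 samples, again without overlap. The means were 0.887 ± 0.0488 and 0.517 ± 0.142 (SD, n = 3 each), a difference of -0.370. Fisher's exact p was 0.00181 with 81 reads that include and 5 that skip the exon in Control, and 18 and 8 in RBM47, while limma's adjusted p was 0.25. The exon, in the event from 91507923 to 91510020 on chromosome 7, matched a coding exon of 141 bases at chr7:91671360-91671500 on the plus strand, in frame. With 26 reads in RBM47 it was the thinner of the pair, and it was the only event of AKAP9 in the table. With the group averages printed by the authors, 0.310 and 0.292 for NIN and 0.695 and 0.517 for AKAP9, neither exon met the difference of 0.2. With rates from the read totals AKAP9 did, at 0.890 in Control and 0.529 in RBM47, and NIN did not.

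The exons with lower inclusion are shown with their splice sites, in GRCh37 sequence along the transcript strand, because the difference lies in whether these ends are joined. Capitals mark the exon and lower case the intron next to it. The AKAP9 exon is whole, at chr7:91671340-91671520 on the plus strand. For NIN the start, at chr14:51225309-51225388, and the end, at chr14:51223170-51223249, are on the minus strand.
AKAP9 exon: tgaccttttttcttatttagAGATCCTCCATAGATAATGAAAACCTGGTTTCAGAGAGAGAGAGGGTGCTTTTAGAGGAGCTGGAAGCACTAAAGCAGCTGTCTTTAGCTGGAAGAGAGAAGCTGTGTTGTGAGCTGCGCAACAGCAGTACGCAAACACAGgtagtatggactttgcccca
NIN start of exon: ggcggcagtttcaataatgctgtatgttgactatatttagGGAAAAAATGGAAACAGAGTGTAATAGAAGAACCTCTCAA
NIN end of exon: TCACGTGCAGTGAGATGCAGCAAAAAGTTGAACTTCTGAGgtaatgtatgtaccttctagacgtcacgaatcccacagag
Both exons begin after an AG and end before a GT, the usual splice site dinucleotides. A run of 5 T lies in the 100 bases before each of them and not in the 100 bases after.

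The other scaffolds differed little. CDK5RAP2 recruits gamma-tubulin to the matrix and PCNT (pericentrin) forms the matrix itself. The most balanced exon of CDK5RAP2, named after its values were seen, had 0.516, 0.475 and 0.482 in Control and 0.465, 0.457 and 0.481 in RBM47, on 837 and 904 reads. That of PCNT, named likewise, had 0.797, 0.810 and 0.721 in Control and 0.838, 0.720 and 0.789 in RBM47. Differences of -0.0234 and 0.00676 came with limma's adjusted p of 0.823 and 0.970. Of the 13 scaffold events, 11 differed by less than 0.05.

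In the centriolar satellites 2 of the 6 intermediate events had groups that did not overlap, against 17.8% of the intermediate events in the whole table. They went in opposite directions, and neither met the study's criteria or limma's threshold. PCM1 is the protein that holds satellites together. Its exon of 165 bases, in frame, had 0.547, 0.587 and 0.584 in Control and 0.427, 0.424 and 0.509 in RBM47. The difference was -0.119, with SDs of 0.0222 and 0.0486 (n = 3 each), on 754 and 932 reads. Fisher's exact p was 6.60e-05, the difference was below the 0.2 that the study asked for, and limma's adjusted p was 0.195. OFD1, a satellite and distal centriole protein and a ciliopathy gene, had 0.259, 0.290 and 0.286 in Control and 0.429, 0.6 and 0.355 in RBM47. This partly coding exon of 189 bases differed by 0.183 on 57 and 45 reads, with a Fisher's exact p of 0.113 and limma's adjusted p of 0.658. A nearly always included exon of PCM1, named after its values were seen, had 1, 1 and 0.989 in Control and 0.966, 0.986 and 0.982 in RBM47. The groups are apart there, as in other nearly always included exons, such as those of CEP72, HAUS2 and KIAA0586. The share of such exons without overlap was not counted, so nothing is read from it. A deeper OFD1 exon, from 13690383 to 13695323, named after its values were seen, differed by -0.0239.

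In augmin, the exon of HAUS1, a subunit of the complex, had a lower rate in every RBM47 sample and did not pass limma's threshold. Its rate was 0.981, 0.936 and 1 in the Control samples and 0.755, 0.792 and 0.876 in the RBM47 samples, without overlap. The means were 0.972 ± 0.0329 and 0.808 ± 0.0618 (SD, n = 3 each), a difference of -0.164. Fisher's exact p was 0.000224 with 370 reads that include and 5 that skip the exon in Control, and 555 and 36 in RBM47, and limma's adjusted p was 0.06, the lowest after the CSPP1 and NIN exons. The rate from totals differed by -0.0885. The event from 41939157 to 41957327 on chromosome 18 matched a coding exon of 124 bases at chr18:43702433-43702556, whose length is not a multiple of 3, so that skipping shifts the frame. The deepest intermediate augmin event, in HAUS7, had 0.25, 0.279 and 0.242 in Control and 0.298, 0.25 and 0.293 in RBM47 (difference 0.0231, limma's adjusted p 0.832). Of the 21 augmin events, 15 differed by less than 0.05.

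The centriole and basal body genes include ALMS1, the gene of Alström syndrome, whose protein sits at the proximal end of centrioles. Its exon had 0.818, 0.848 and 0.805 in Control and 0.926, 1 and 0.873 in RBM47, so the groups did not overlap. The difference was 0.109, with SDs of 0.0221 and 0.0636 (n = 3 each), on 243 and 225 reads, with a Fisher's exact p of 0.0332 and limma's adjusted p of 0.403. The matched coding exon has 171 bases and lies at chr2:73777394-73777564 on the plus strand, in frame. CENPJ, which sets centriole length, had a deeply read exon with 0.353, 0.574 and 0.544 in Control and 0.571, 0.357 and 0.538 in RBM47. Here the spread within the groups, with SDs of 0.120 and 0.115, was far larger than the difference of -0.00118.

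The HAUS1 and ALMS1 exons are shown as a pair, a frame-shifting exon with less inclusion in RBM47 and an in-frame exon with more, each with 20 intronic bases on either side. They are on the plus strand of GRCh37, at chr18:43702413-43702576 and chr2:73777374-73777584, with the exon in capitals.
HAUS1 exon: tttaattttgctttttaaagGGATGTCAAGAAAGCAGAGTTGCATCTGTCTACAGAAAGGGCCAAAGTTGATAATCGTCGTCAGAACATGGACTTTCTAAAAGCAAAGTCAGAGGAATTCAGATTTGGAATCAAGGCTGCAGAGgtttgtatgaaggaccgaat
ALMS1 exon: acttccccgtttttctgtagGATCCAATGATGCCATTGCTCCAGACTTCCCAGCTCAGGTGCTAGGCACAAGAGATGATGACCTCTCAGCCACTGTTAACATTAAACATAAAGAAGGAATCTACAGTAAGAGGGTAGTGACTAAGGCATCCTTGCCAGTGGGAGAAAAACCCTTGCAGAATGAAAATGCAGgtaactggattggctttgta
Both have a run of 5 T within 100 intronic bases on either side of the exon.

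**Figure D3:**
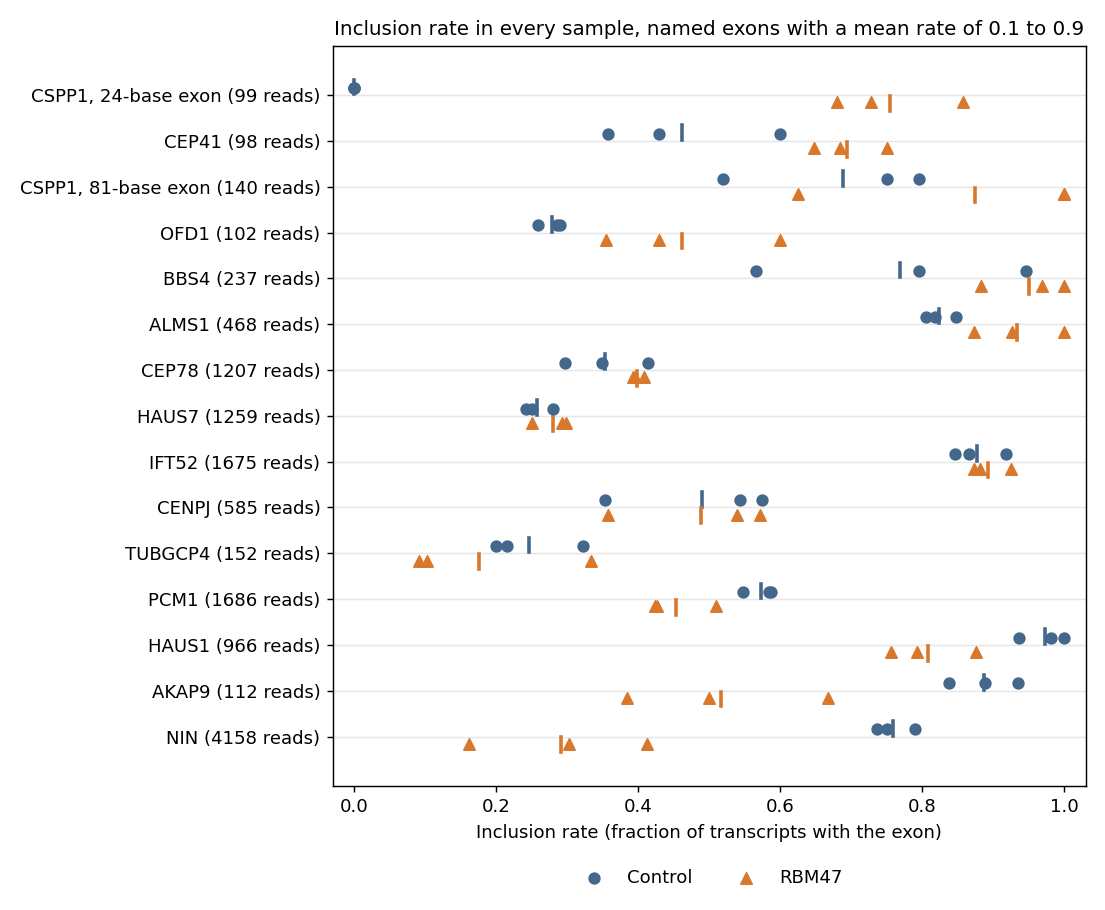
Inclusion rate (fraction) in every sample for the named events with a mean rate of 0.1 to 0.9, ordered by the difference in means, with the reads of both groups beside each gene. Blue circles are Control samples, orange triangles RBM47 samples and upright bars group means. Groups are apart in CSPP1 (24 bases), CEP41, OFD1, ALMS1, PCM1, HAUS1, AKAP9 and NIN. Of the deeply read exons, those of CEP78, HAUS7 and IFT52 differ by at most 0.0458, while PCM1 (1686 reads) and NIN (4158 reads) are among those apart.

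The CEP genes, a set of centrosomal proteins named by their location, gave 74 events in 24 genes and no call by either test. CEP41, a ciliopathy gene needed for tubulin glutamylation in the cilium, had 0.357, 0.6 and 0.429 in Control and 0.647, 0.75 and 0.684 in RBM47. The groups did not overlap and the difference was 0.232, but on 56 and 42 reads Fisher's exact p was 0.103 and limma's adjusted p 0.585. The deepest intermediate event, in CEP78, had 0.296, 0.414 and 0.349 in Control and 0.395, 0.408 and 0.393 in RBM47, a difference of 0.0458 on 1207 reads. Intermediate exons of CEP192, CEP250 and CEP63, named after their values were seen, differed by 0.00759, -0.000392 and 0.00452. In CEP170, likewise, the rate was 0.815, 0.764 and 0.813 in Control and 0.818, 0.5 and 0.697 in RBM47 on 900 reads, a difference of -0.126 with limma's adjusted p of 0.552. In CEP350, also named afterwards, the rate was 0.565, 0.769 and 0.733 in Control and 0.75, 1 and 1 in RBM47, a difference of 0.227 that did not pass either test. Of the 74 CEP events, some of which shared their outer ends with another, 57 differed by less than 0.05. The rate was higher in RBM47 in 43 (58.1%) and lower in 20 (27.0%), against 41.9% and 42.7% of the whole table.

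In the gamma-tubulin complex 6 of 7 events differed by less than 0.05, and 4 had a rate of 1 in all samples. The exception was TUBGCP4, a subunit of the ring complex, with 0.216, 0.2 and 0.323 in Control and 0.333, 0.0909 and 0.102 in RBM47. The groups overlapped and limma's adjusted p was 0.819.

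The genes of intraflagellar transport gave 42 events in 12 genes, again with no call. IFT52, a core subunit of the train that moves cargo to the tip, gave the deepest intermediate event, with 0.918, 0.847 and 0.866 in Control and 0.925, 0.873 and 0.881 in RBM47 on 1675 reads. The difference of 0.0162 was smaller than both SDs, 0.0367 and 0.0281. A second event of IFT52 with the same outer ends differed by 0.0216. IFT122, a subunit of the train that returns from the tip, held a difference of -0.390, named after its values were seen. Its rates were 0.5, 0.833 and 0.765 in Control and 0.429, 0 and 0.5 in RBM47, so RBM47 replicate 2 was the lowest, and Control replicate 1 and RBM47 replicate 3 had the same rate. It passed neither test. A second IFT122 event with the same outer ends, and the same 8 and 10 skipping reads, differed by -0.0628. Another IFT122 event, from 130653446 to 130662836, had 0.5, 1 and 1 in Control and 1 in all RBM47 samples on 48 and 30 reads.

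The BBS genes gave 15 events in 5 genes, and no call. In BBS4, a subunit of the BBSome that also binds PCM1, a coding exon of 69 bases had 0.565, 0.946 and 0.795 in Control and 0.882, 1 and 0.969 in RBM47. The difference of 0.182 was smaller than the Control SD of 0.192, with a Fisher's exact p of 0.0273 and limma's adjusted p of 0.461. The difference was 0.0801 without Control replicate 1 and 0.270 without Control replicate 2. It reached the 0.2 of the study's criteria when Control replicate 2 or RBM47 replicate 1 was left out. Fisher's exact p still rested on the reads of all samples there, since reads were given per group only.

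**Figure D4:**
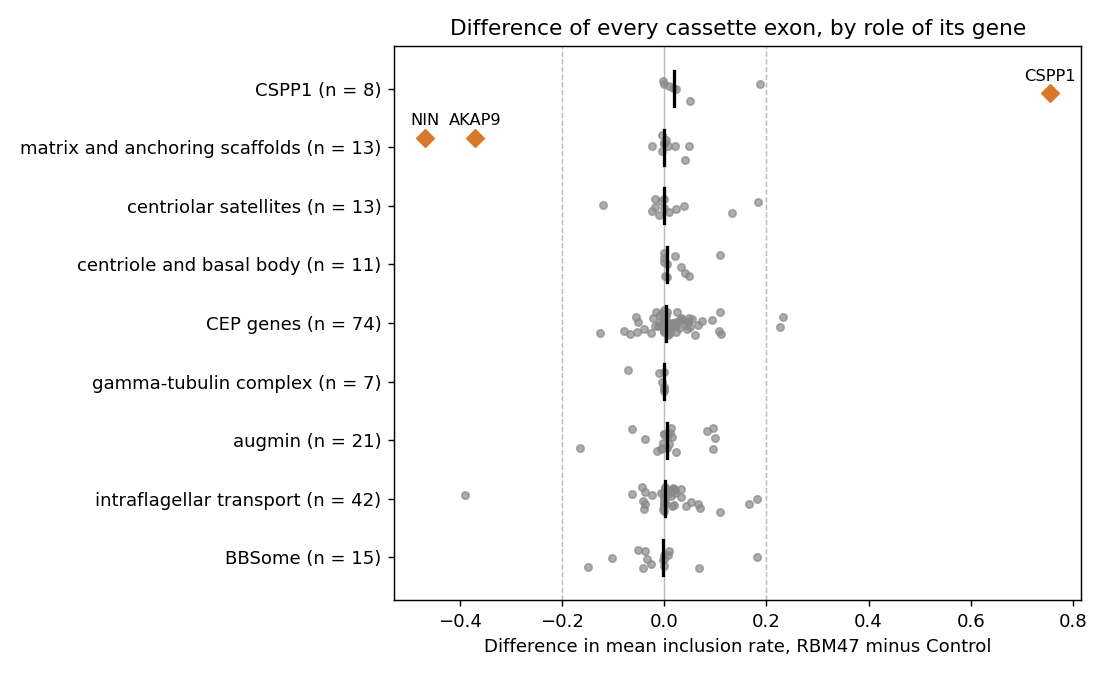
Difference in mean inclusion rate (fraction, RBM47 minus Control) of every event, by the role of its gene. Each gray point is 1 event, orange diamonds are events past the study's criteria, black bars are medians, dashed lines mark a difference of 0.2, and n is the number of events. The medians lie at or near 0 in every role, and the 2 lower diamonds are both scaffolds. The role named BBSome holds all BBS genes, whether or not they encode a subunit of the BBSome.

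Depth set how firmly an unchanged exon could be read. Of the 57 intermediate events, 18 had at least 500 reads, and 13 of these differed by less than 0.05. The others were exons of NIN, PCM1, HAUS1, CEP170 and IFT20. The median SD of the 57 events was 0.0667 in Control and 0.0955 in RBM47 (n = 3 each), against 0.0613 and 0.0734 in the whole table. For 28 of the 62 genes no event had an intermediate mean rate, so for these the table holds only exons that are nearly always kept or nearly always skipped.

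The number of reads over these events also differed between the groups. The median event had 0.796 times as many reads in RBM47 as in Control, against 0.856 in the whole table. The median ratio was under 0.5 in 9 genes and over 1 in 14. It was lowest in CEP170, a protein of the subdistal appendages, with 1466 reads in Control and 243 in RBM47 over its 3 events. NIN fell in the same range, with 3432 and 1128 reads over 2 events, as did AKAP9, with 86 and 26. IFT27, a small GTPase of the transport train, had 283 reads in Control and 657 in RBM47. These ratios have no replicate check, since reads were given per group only, and part of the reads of an event depends on its inclusion. Whether the lower read number had a part in the wider spread of the NIN and AKAP9 rates in RBM47 was not tested.

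Exactly 1 annotated exon fitted by gene and outer span for 121 events, and 107 events in 49 genes were left when those that share their outer ends with another event of the gene were set aside. The same step left 9063 of 12066 events in the whole table. The median exon had 115 bases, against 107 over these events of the whole table. Its length was a multiple of 3 in 46.7%, against 46.4% in the whole table. Among intermediate events it was so in 20 of 30 (66.7%), against 57.3%. Coding exons made up 85.0% and 82.7%. Only 3 of the matched exons had 30 bases or fewer, in BBS9, CSPP1 and CDK5RAP2, and of these only the CSPP1 exon had an intermediate rate. A run of 5 T (TTTTT, on the transcript strand, which overlaps the polypyrimidine tract before an exon) lay within 100 intronic bases before 52.3% of the matched exons and after 50.5%, against 41.7% and 29.9% of matched exons in the whole table. For the CSPP1 exon of 24 bases the run lay after the exon and not before it. These are letter matches only.

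A wider list held 104 other symbols of the centrosome, spindle poles and cilium, of which 74 genes were in the table with 251 events. It was chosen with earlier results of these data known, so its share of calls is only a description. By the study's criteria 1 event was higher (0.398%) and 2 were lower (0.797%), beside 0.607% and 0.794% of the whole table. All 3 were in rows re-matched by the RBM47 average. Of the 57 events of the list that limma tested, 1 was called higher and 1 lower (1.75% each). Over all tested events these shares were 0.734% and 0.784%. KIFAP3 is the cargo-binding subunit of kinesin-2, the motor of intraflagellar transport. Its exon had 0.0303, 0.0274 and 0 in Control and 0.241, 0.237 and 0.284 in RBM47, a difference of 0.235 with limma's adjusted p of 0.0136. NUMA1 organizes the spindle poles. Its coding exon of 42 bases had 0.574, 0.558 and 0.554 in Control and 0.318, 0.297 and 0.325 in RBM47. The difference was -0.248 with SDs of 0.0104 and 0.0144 (n = 3 each) on 1936 and 1181 reads, and limma's adjusted p was 0.00145. RAB11FIP3, an endosomal adaptor that moves Rab11 vesicles toward the centrosome, had 0.735, 0.831 and 0.759 in Control and 0.510, 0.524 and 0.292 in RBM47. That is a difference of -0.333 in a coding exon of 135 bases, with a Fisher's exact p of 2.33e-06 and limma's adjusted p of 0.0945. In all 3 events, which are named for a difference of at least 0.2, the groups were apart. Over the intermediate events of the list this held for 9 of 57 (15.8%), against 17.8% of the whole table.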

How the data were processed

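The labels' processing notes name TopHat, and the study's methods describe junction reads of cassette exons. The authors deposited the inclusion rate of each sample and the average of each group as a fraction, and read counts of the including and skipping isoform summed per group. Their columns of differences, odds ratios and Fisher p-values hold their own comparisons and were not used. The build of the coordinates is not given in the sources used here. Exons were matched to GENCODE on GRCh37 by gene and outer span, leaving out events that share their outer ends. In each of the 32 genes with 2 or more matches the coordinates differed by 1 offset.

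Rows out of register were re-matched by printed averages (tolerance 3e-09). 26 rows stayed without rates, which left 24699 events. Fisher's exact test used scipy 1.17.1. limma 3.58.1, with the variance modelled on log2 reads, was fitted to the arcsine square root of the rates of 5998 events whose mean rate was 0.1 to 0.9. It used Benjamini-Hochberg adjustment and was tested on simulated data. Its form, the genes and the lists were chosen with earlier results of these data known. Named are all CSPP1 events, all events past a test, intermediate events without overlap and at least 30 reads in each group, and per role the deepest intermediate event and the largest difference at that depth. Reads per sample were not analysed here.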

Additional observations from a re-analysis of the deposited data

How the results depend on the processing

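Of 184 values of named events under alternatives, 172 kept direction and side of the threshold. By the study's criteria 5 events were higher and 4 lower at a difference of at least 0.1 (main 1 and 2). No event was higher or lower in rows in register as deposited (0 and 0), by either test. With at least 30 reads in each group 1 event was lower (NIN), with rates from read totals 1 (AKAP9), and with the authors' averages 0. Leaving out a sample gave 1 to 2 higher (2, with BBS4, without Control replicate 2 or RBM47 replicate 1) and 2 lower each time. Only the rate difference was recomputed there. Fisher's exact p kept the reads of all samples, so these counts do not show how the p depends on a sample. limma called 1 lower event, and 0 without the variance trend or over all mean rates. Of the wider list 2 events were higher and 3 lower at a difference of at least 0.1 (main 1 and 2).

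Differences near 0 changed sign. CENPJ gave 0.0342 from read totals, and with a sample left out -0.0698 to 0.0648 (main -0.00118, above 0 without Control replicate 2 or 3 or RBM47 replicate 2). For CSPP1 the event from 68206739 gave -0.00866 to 0.00606 with a sample left out, and the event from 68212244 gave -0.00442 to 0.0404. Without Control replicate 2, limma's adjusted p of HAUS1 was 0.0498, but the difference of -0.183 was short of 0.2, so it was not a call.

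Samples with the same replicate number did not deviate together (r of -0.0227, -0.00560 and 0.0140). With the number as a replicate block in limma, 0 events of the wider list were higher and 1 was lower (main 1 and 1), as the adjusted p of KIFAP3 went from 0.0136 to 0.0514, the adjusted p of HAUS1 was 0.0422 and that of NIN 0.00595, and the number of calls among the 204 events stayed at 1 higher and 1 lower. What depth limits is the reading of single samples: no read number per sample is known, and 26 reads in RBM47 lay behind the AKAP9 rate.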
